A study of Mus musculus with 2 samples.

Results

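The genes described here are the semaphorins, plexins, neuropilins, ephrins and Eph receptors, the secreted or membrane-bound guidance cues and the receptors that read them. They were taken by gene symbol (Sema3 to Sema7, Plxn, Nrp1, Nrp2, Epha, Ephb, Efna and Efnb) with a minimum of 20 UMIs, the molecules counted after removal of amplification copies, over both libraries. Of 56 matching rows among 33456 genes, 52 reached the minimum. They were 20 semaphorins, 8 ephrins, 13 Eph receptors, 8 plexins, 2 neuropilins and Plxna4os1, an antisense RNA named for its position opposite Plxna4. The 52 genes had between 23 and 6868 UMIs, with a median of 573. Epha6 with 18 UMIs, Plxnb3 with 17, and Plxna4os2 and Plxna4os3 with 1 and 0 fell below the minimum.

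The cells came from ciliary epithelium of wild-type C57BL/6 mice, freshly dissected at postnatal day 35, digested with collagenases and pooled from several eyes. Library 1 used 3 sets of eyes, and the labels of library 2 give 3 in one field and 4 in another. The 2 droplet-based single-cell libraries form 1 group, with no treatment or mutant to compare, so the comparisons are between cell classes within the libraries. Both pools mix animals, and nothing further is said of how independent they are. The p-values measure only how differences between classes varied between these 2 libraries, pooled over the classes, with the common library difference fitted.

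Semaphorins signal through plexins, whose intracellular part acts on small GTPases. Most class 3 semaphorins, which are secreted, bind a neuropilin that forms a complex with a plexin, whereas Sema3e binds Plxnd1 directly. Ephrin-A proteins are held on the membrane by a lipid anchor and mainly bind EphA receptors, and ephrin-B proteins span the membrane and mainly bind EphB receptors and EphA4. Both families were first studied in axon guidance, retinal map formation and vessel growth. In the ciliary body, 2 apposed epithelial sheets, the outer pigmented and the inner non-pigmented layer, secrete the aqueous humour over a vascular stroma.

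After filtering, 3865 cells remained in library 1 and 5466 in library 2, with medians of 4128 and 2968 UMIs per cell. 8 barcodes of kept cells occurred in both libraries. Cells were clustered on genes that excluded the 52, and 29 clusters were grouped into 20 classes by marker genes. A class name stands for a marker profile: "non-pigmented epithelium" means cells like it. The class called macrophages also takes in dendritic cells, whose markers summed to 22010 and 18170 CPM there in libraries 1 and 2. No iris markers were listed, so the pigmented class, called a ciliary layer below, may also hold iris epithelium. The dissection held much more than ciliary epithelium. The non-pigmented class had 144 and 151 cells in libraries 1 and 2, and the pigmented class 136 and 215, whereas rods alone had 378 and 1756. 1 stromal cluster of 335 and 145 cells counted 8 of 10 fibroblast markers but had the muscle gene Tagln among its leading genes, so it is called unnamed stroma. Rhodopsin, the rod pigment, had a median of 145 and 1209 CPM over the 16 classes without photoreceptors, against 21180 and 13470 CPM in rods, so rod RNA outside photoreceptors was higher in library 2. Every level below is in CPM, the UMIs of a gene per 1000000 UMIs of a class, given for library 1 and then library 2. CPM are not corrected for transcript length, so levels are compared between classes and not between genes.

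**Figure D1:**
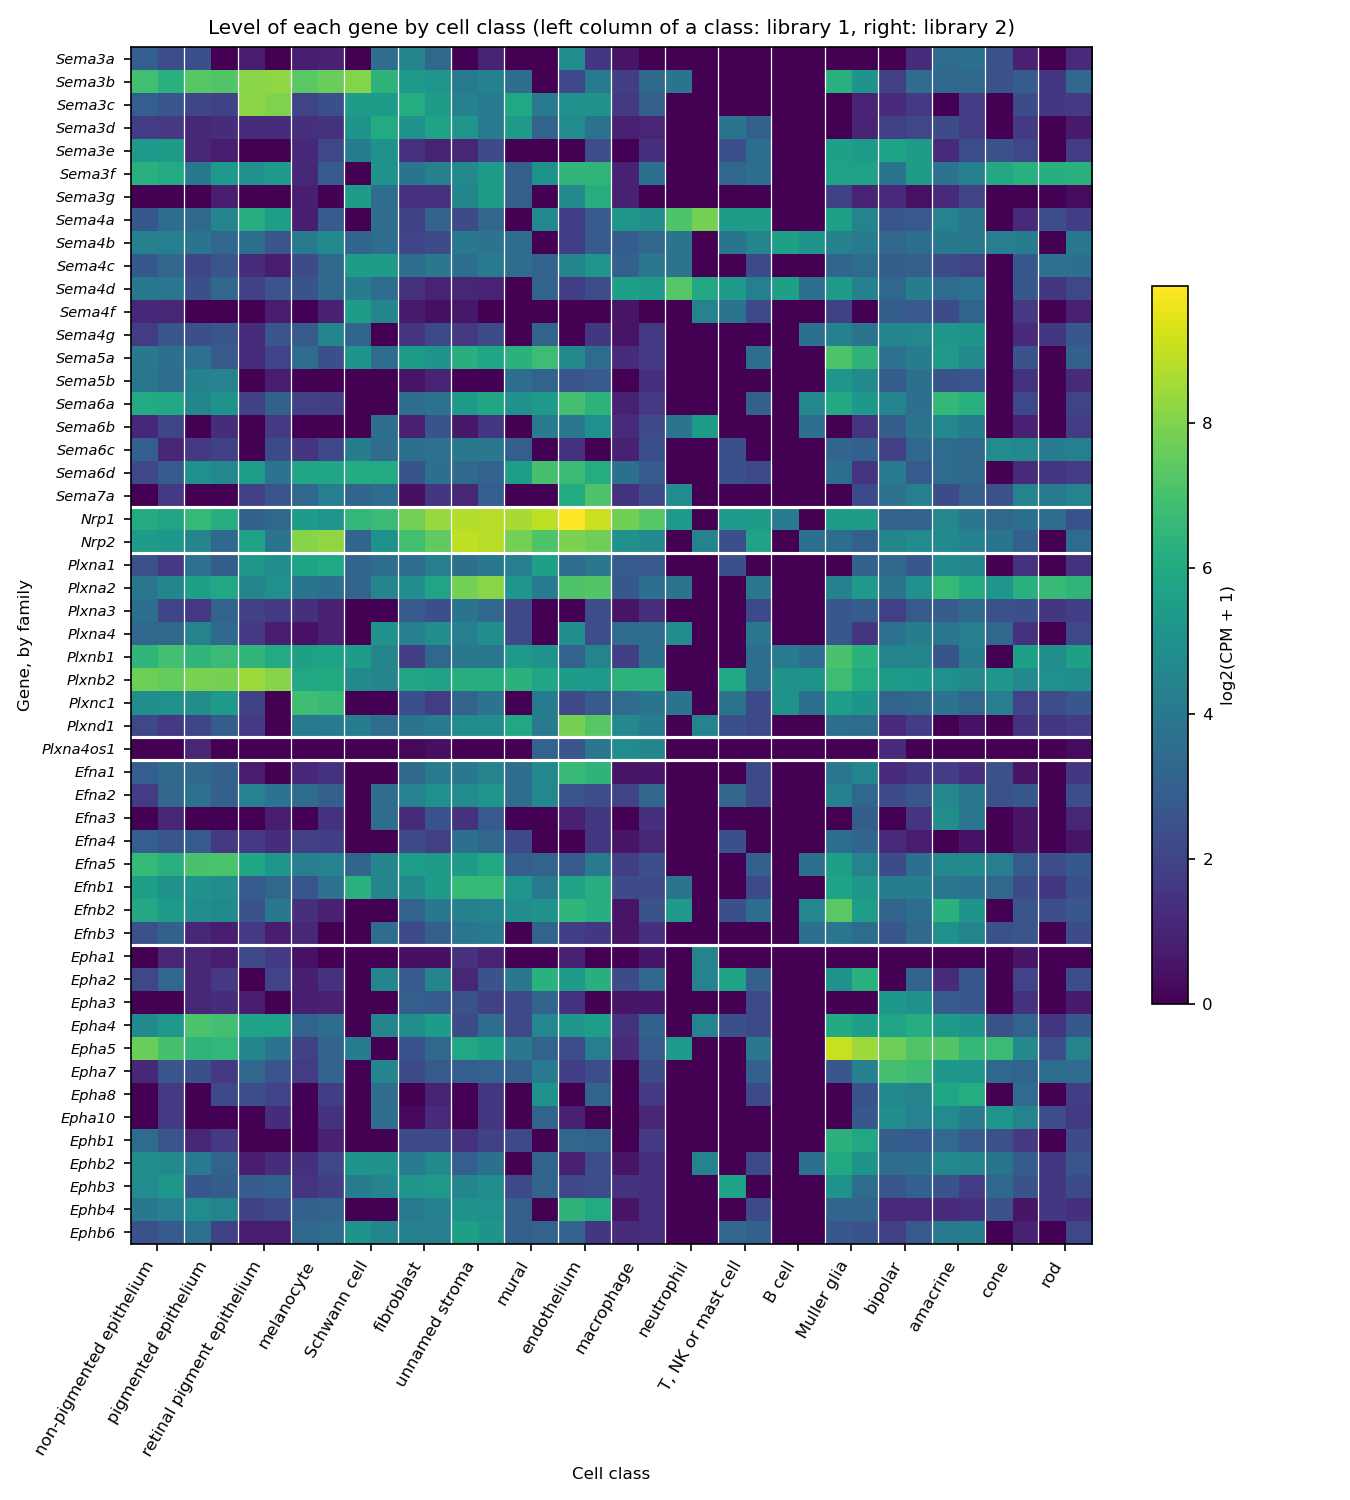
Level of each of the 52 genes (rows, by family) in the 18 classes that held 20 or more cells per library (columns, library 1 on the left and library 2 on the right of each class), as log2(CPM + 1). The rows of Nrp1 and Nrp2 are brightest over stroma, mural cells and endothelium, with melanocytes for Nrp2, and that of Epha5 over Muller glia, followed by bipolar cells and the non-pigmented epithelium.

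The placement of cues and receptors was first read as the class of highest CPM. Only the 18 classes with 20 or more cells per library were ranked, which leaves out retinal ganglion cells and red cells. A highest class was taken as shared where both libraries gave the same class with at least 10 UMIs of the gene there in each. It was shared by 31 of the 52 genes, against 36.2% of all 8163 genes not used for clustering with at least 20 UMIs. The minimum of 10 UMIs makes this share depend on how abundant a gene is. The background was not matched for abundance, so the difference is not a property of the set alone. Those 31 were 14 of the 28 cues and 16 of the 23 receptors, with the antisense RNA. Endothelium held 7 of them (Efna1, Ephb4, Nrp1, Plxnd1, Sema3f, Sema6a and Sema7a), or 22.6%, and was the shared class of 5.86% of the 2954 genes in the background. The make-up of this class differed between libraries: markers of lymphatic or Schlemm canal endothelium, of which all 5 had UMIs there, summed to 2289 and 240 CPM, and their part in the endothelial levels below was not tested. Unnamed stroma held 5 (Efna2, Efnb1, Ephb6, Nrp2 and Plxna2), or 16.1% against 3.55%. Muller glia, the radial glia of the retina, held 4 (Epha5, Ephb1, Ephb2 and Sema5b), or 12.9% against 4.33%. In this class 10 and 9 of 10 markers of non-pigmented ciliary epithelium had UMIs, summing to 2843 and 1580 CPM. They summed to 4116 and 4212 CPM in the non-pigmented class, and their part in the Muller glia levels below was not tested. Amacrine cells, the inhibitory interneurons of the retina, also held 4 (Efna3, Efnb3, Epha8 and Sema4g), a share below the 19.5% of the background. Retinal pigment epithelium held 3 (Plxnb2, Sema3b and Sema3c), or 9.68% against 6.57%. Pigmented epithelium (Efna5 and Epha4), bipolar cells (Epha3 and Epha7) and melanocytes (Plxna1 and Plxnc1) held 2 each, or 6.45% against 5.04%, 7.35% and 5.69%. Sema4a was highest in neutrophils and Plxna4os1 in macrophages. No gene had its shared highest class in the non-pigmented epithelium, fibroblasts, mural cells or rods.

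Among the secreted class 3 semaphorins, Sema3c marked the retinal pigment epithelium, the pigmented sheet behind the photoreceptors. It measured 285 and 252 CPM there, 69.0 and 40.8 in fibroblasts and 3.20 and 2.87 in the pigmented ciliary epithelium, and both libraries lay far above every other class. Against the other classes its log2 fold change was 6.71 ± 0.23 (SE, adjusted p = 2.33e-20) by edgeR's quasi-likelihood test, adjusted by Benjamini-Hochberg over 7001 genes. Each SE in this text is approximate, the size of the log2 fold change divided by the square root of the test's F statistic. Sema3b, a ligand of neuropilin 2, was high in all pigmented classes and in Schwann cells. Its levels were 278 and 301 in the retinal pigment epithelium, 164 and 196 in melanocytes, 159 and 146 in the pigmented and 117 and 78.5 in the non-pigmented ciliary epithelium, and 261 and 85.2 in Schwann cells. It was called higher than the other classes in 7 of the 11 class comparisons, more than any other gene of the set. The level of such a comparison is the mean log2 level over the other classes, so 1 gene can be higher in several.

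Sema3e, the ligand of Plxnd1, separated the ciliary layers. It measured 38.4 and 43.5 CPM in the non-pigmented and 1.07 and 0.718 in the pigmented layer, the latter from 1 UMI in each library. In other classes it stood at 46.7 and 40.5 in Muller glia, which also carried non-pigmented markers, and 52.3 and 41.5 in bipolar cells. The non-pigmented level was below both of these classes in library 1 and slightly above both in library 2. Retinal ganglion cells, only 15 and 50 cells and outside the fit, gave 48.7 and 57.0. Sema3f, which binds neuropilin 2, was highest in endothelium at 86.6 and 86.7, with rods at 73.2 and 79.2 and non-pigmented epithelium at 76.7 and 64.8 close behind.

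Sema3a, the prototype repulsive cue, had different highest classes, endothelium in library 1 and amacrine cells in library 2. Its endothelial level was 26.3 and 2.02 and its fibroblast level 21.8 and 8.89, so the libraries did not give the same order. The markers of lymphatic or Schlemm canal endothelium given above were likewise higher in the endothelium of library 1. The make-up of the fibroblast class of 955 and 487 cells also differed. Cluster 6, led by Mmp3, held 294 and 61 of them, and cluster 1, led by Myoc, 306 and 281. The part of this in the fibroblast levels was not tested. Sema3d was highest in mural cells in library 1 and Schwann cells in library 2, each from 11 or fewer UMIs, and had 32.2 and 50.7 in fibroblasts from 197 and 154 UMIs. Sema3g, a cue known from endothelium, was highest in Schwann cells in library 1, from 5 UMIs, and in endothelium in library 2. Its levels were 23.8 and 70.6 in endothelium and 22.2 and 40.3 in unnamed stroma. Fibroblast cluster 1 held 7 and 5 UMIs of it, and fibroblast clusters 2 and 6 held 3 over both libraries.

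Of the membrane-bound class 4 semaphorins, Sema4a alone had a shared highest class among immune cells. It reached 142 and 226 CPM in neutrophils, from 11 UMIs in each library, 70.6 and 45.4 in the retinal pigment epithelium and 36.3 and 28.2 in macrophages. Sema4d, the ligand of plexin-B1 known from lymphocytes, measured 155 and 61.5 in neutrophils, the second from 3 UMIs, and 46.5 and 41.0 in macrophages. Against the other classes, Sema4d in macrophages had a log2 fold change of 3.01 ± 0.26 (SE, adjusted p = 2.08e-11), and Sema4a one of 2.75 ± 0.37 (SE, adjusted p = 2.20e-07) (edgeR). Sema4a was also higher in the retinal pigment epithelium than in the other classes, by 3.37 ± 0.35 (SE, adjusted p = 1.77e-09).

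The rest of class 4 was thinner. Sema4g had its shared highest class in amacrine cells at 36.2 and 33.5. Sema4b was highest in B cells, from 3 UMIs in each library, and Sema4c and Sema4f in Schwann cells, from 5 or fewer UMIs, so these 3 rest on few molecules.

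Class 5 and 6 semaphorins span the membrane. Sema5b was highest in Muller glia at 35.7 and 25.8 CPM and had 19.2 and 20.1 in the pigmented layer. Sema5a was highest in Muller glia in library 1 and mural cells in library 2. It measured 143 and 85.6 in the first and 80.6 and 111 in the second class. Sema6a was highest in endothelium at 124 and 82.7, with 93.5 and 76.7 in amacrine cells. Within amacrine cells it measured 108 and 95.5 in a cluster led by Tac2 and Gad1 and 40.2 and 28.7 in one led by the glycine transporter Slc6a9, so the first was higher in both libraries.

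Sema6d stood highest in endothelium in library 1 and mural cells in library 2, at 105 and 68.6 and 45.5 and 127. Sema6c was highest in cones at 26.4 and 23.6, from 6 UMIs in library 1, and Sema6b in amacrine cells in library 1 and, from 2 UMIs, neutrophils in library 2. Sema7a, a lipid-anchored semaphorin and ligand of plexin-C1, was highest in endothelium at 66.2 and 139, followed by neutrophils at 25.9 in library 1 and rods at 20.1 in library 2. Its endothelial log2 fold change against the other classes was 5.53 ± 0.33 (SE, adjusted p = 5.13e-14) (edgeR).

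Neuropilins are the co-receptors of class 3 semaphorins and of vascular endothelial growth factors. Nrp1 measured 940.0 and 542 CPM in endothelium, 429 and 456 in unnamed stroma, 378 and 491 in mural cells, 227 and 330.3 in fibroblasts and 219 and 153 in macrophages. In both ciliary layers it lay at 66.6 and 54.1 (non-pigmented) and 97.2 and 71.0 (pigmented), and in bipolar cells at 7.84 and 7.89. Endothelium was first in both libraries, but unnamed stroma and mural cells changed places in the order.

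Nrp2 was placed differently. It measured 486 and 451 in unnamed stroma, 268 and 299 in melanocytes, 242 and 209.7 in endothelium and 116 and 178 in fibroblasts, and the retinal pigment epithelium had 51.6 and 13.2. Both neuropilins were called lower in the mean of rods, cones, bipolar and amacrine cells than in the other classes. Their log2 fold changes there were -3.21 ± 0.49 (SE, adjusted p = 1.68e-06) for Nrp1 and -1.90 ± 0.46 (SE, adjusted p = 8.73e-04) for Nrp2 (edgeR).

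**Figure D2:**
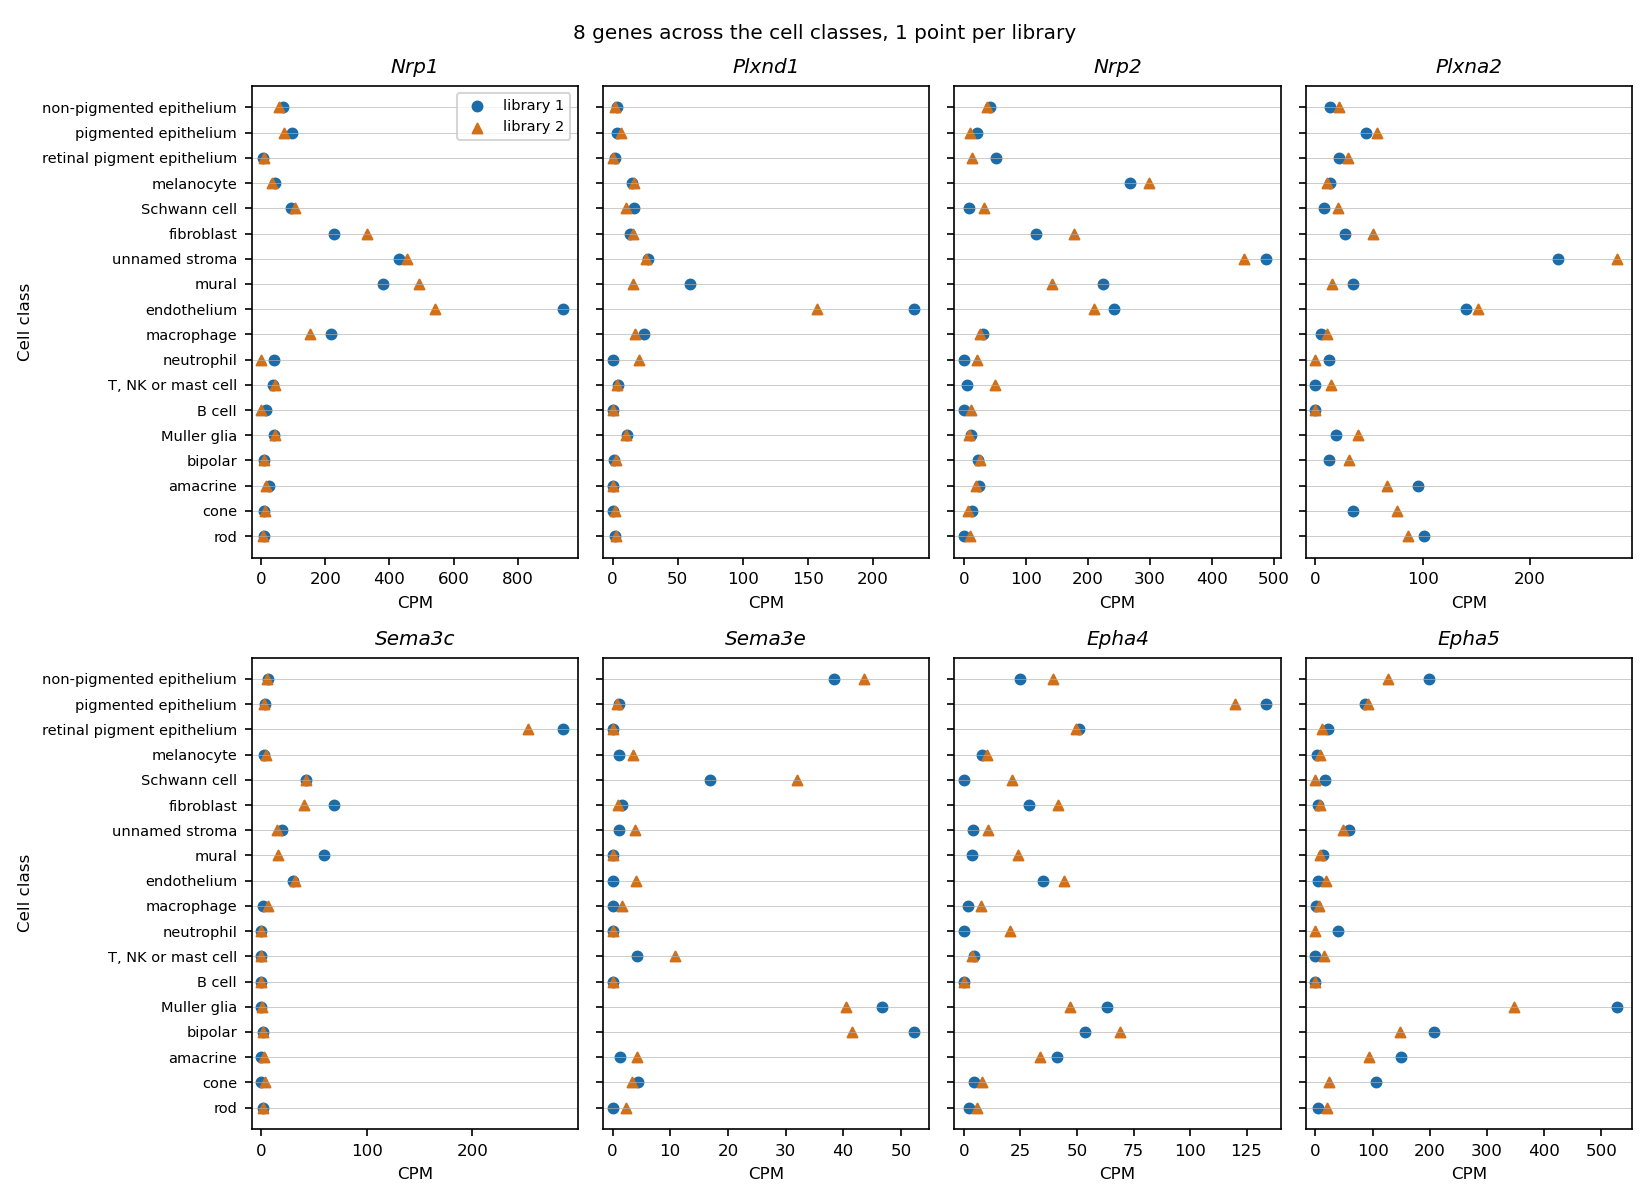
CPM of 8 genes (panels, linear axes from 0) in the 18 classes, with a circle for library 1 and a triangle for library 2. Nrp1 and Plxnd1 have their highest points in endothelium, Nrp2 and Plxna2 in unnamed stroma, Sema3c in the retinal pigment epithelium, Epha4 in the pigmented epithelium and Epha5 in Muller glia.

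Among plexins, Plxnd1, the receptor of Sema3e, measured 232 and 157 CPM in endothelium. It was followed by mural cells at 59.6 in library 1 and unnamed stroma at 25.9 in library 2, and fibroblasts had 13.1 and 15.5. Its endothelial log2 fold change was 5.32 ± 0.24 (SE, adjusted p = 3.08e-18) (edgeR). Plxna2 was highest in unnamed stroma at 226 and 281, with 140.1 and 151 in endothelium and 102 and 86.4 in rods. Plxnb2 was highest in epithelia, at 343 and 269 in the retinal pigment epithelium, 239 and 229 in the pigmented and 205 and 187 in the non-pigmented ciliary layer, against 74.9 and 73.9 in unnamed stroma.

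Plxnb1, the receptor of Sema4d, was highest in Muller glia in library 1 and in non-pigmented epithelium in library 2. Its levels were 129 and 78.3 in Muller glia and 90.2 and 120.0 in the non-pigmented layer, so these neighbours changed order between libraries. Plxnc1 and Plxna1 were highest in melanocytes, at 114 and 101 and 52.0 and 58.1. Their log2 fold changes there were 4.18 ± 0.26 (SE, adjusted p = 1.18e-14) for Plxnc1 and 3.82 ± 0.32 (SE, adjusted p = 2.22e-11) for Plxna1 (edgeR). Plxna3 was highest in unnamed stroma in library 1 and amacrine cells in library 2, and Plxna4 in endothelium in library 1 and, from 3 UMIs, Schwann cells in library 2.

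Plxna4os1 had 27.3 and 22.3 CPM in macrophages, from 64 and 42 UMIs, and 5.09 and 14.1 in endothelium, and no UMI in 11 of the 18 classes. Within macrophages its level was 39.8 and 25.03 in the largest cluster and 6.31 and 12.2 in the cluster led by Cd209a and Chil3. Plxna4 itself measured 10.2 and 10.6 in macrophages. Strand use in counting is not given in the sources used here, and without it reads of the antisense RNA and of Plxna4 cannot be told apart. edgeR called Plxna4os1 higher in macrophages than in the other classes, and DESeq2 did not.

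Of the ephrin-A ligands, Efna1 was endothelial, at 102 and 84.7 CPM, with unnamed stroma at 14.4 and 20.1. Its log2 fold change in endothelium was 5.69 ± 0.32 (SE, adjusted p = 6.30e-15) (edgeR). Efna5 was epithelial, at 132 and 134 in the pigmented and 95.9 and 75.4 in the non-pigmented layer, with 43.3 and 57.5 in unnamed stroma. Efna2 was highest in unnamed stroma at 26.1 and 35.5 but amacrine cells followed at 23.7 in library 1 and fibroblasts at 29.97 in library 2, within the difference between the libraries. Efna3 was highest in amacrine cells at 28.7 and 13.9. Efna4 was highest in unnamed stroma in both libraries, with 9 UMIs in library 2, under the minimum for a shared class.

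Of the ephrin-B ligands, Efnb1 was highest in unnamed stroma at 96.0 and 95.9 and had 50.1 and 70.6 in endothelium. Efnb2, a marker of arterial vessels, was highest in Muller glia in library 1 and endothelium in library 2. It measured 162 and 44.2 in Muller glia, 90.0 and 72.6 in endothelium and 62.0 and 41.4 in the non-pigmented layer. Efnb3 was highest in amacrine cells at 29.9 and 20.8.

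EphA receptors were mostly neural, glial or epithelial. Epha5 measured 527 and 348 CPM in Muller glia, 207 and 147 in bipolar cells, 199 and 127 in the non-pigmented, 86.5 and 92.6 in the pigmented layer, and 4.58 and 8.89 in fibroblasts. Retinal ganglion cells, outside the fit, held 103 and 318 UMIs of it among 266784 and 1316436 UMIs in all. Its log2 fold change against the other classes was 4.49 ± 0.31 (SE, adjusted p = 8.98e-13) in Muller glia and 3.25 ± 0.36 (SE, adjusted p = 1.23e-08) in the non-pigmented layer (edgeR). Epha4, which binds ephrins of both groups, was highest in the pigmented layer at 133 and 119.9, with 53.6 and 68.8 in bipolar cells. Its log2 fold change in the pigmented layer was 3.52 ± 0.25 (SE, adjusted p = 9.06e-13).

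Epha3 and Epha7 were highest in bipolar cells, at 37.9 and 32.3 and 126 and 107. Epha8 was highest in amacrine cells at 56.1 and 69.0, and Epha10 in cones at 35.2 and 20.1, from 8 UMIs in library 1. Epha2 was highest in the class of T, NK or mast cells in library 1 and mural cells in library 2, each from 12 or fewer UMIs. In that T, NK or mast cell class, 5 and 2 of 7 markers of corneal or conjunctival epithelium had UMIs, summing to 2248 CPM in library 1 and 14.5 in library 2, and their part in the levels there was not tested. The levels of Epha2 were 42.5 and 72.6 in endothelium and 33.0 and 79.2 in Muller glia, higher in library 2 in both. Epha1 alone failed the low-count filter of the fit. It was highest in the retinal pigment epithelium in library 1, from 5 UMIs, and neutrophils in library 2, from 1 UMI. On the opposite strand it overlaps the Zyx gene.

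EphB receptors split between glia, vessels and stroma. Ephb1 was highest in Muller glia at 79.7 and 58.0 CPM, with 9.98 and 6.16 in amacrine cells, and its log2 fold change was 5.76 ± 0.46 (SE, adjusted p = 1.16e-10) (edgeR). Ephb2 was also highest there, at 63.2 and 33.1. Ephb4, the receptor of Efnb2 known from veins, was highest in endothelium at 84.9 and 64.5, with unnamed stroma at 32.2 and 29.7. Its endothelial log2 fold change was 4.95 ± 0.32 (SE, adjusted p = 9.91e-14). On the opposite strand Ephb4 overlaps Zan, and Ephb1 overlaps 9630041A04Rik. Ephb3 was highest in the class of T, NK or mast cells in library 1, from 12 UMIs against 0 in library 2, and in fibroblasts in library 2. The corneal or conjunctival markers in that class moved the same way, at 2248 and 14.5 CPM. The fibroblast level of Ephb3 was 34.2 and 38.2. Ephb6, whose kinase is inactive, was highest in unnamed stroma at 48.3 and 33.6.

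5 of the 7 genes with endothelium as shared highest class had a RefSeq promoter sequence, here from 250 bases before to 50 after a transcript start in build GRCm38.p6. 4 of them are shown because these genes share a placement, with Sema7a and Ephb4 as cue and receptor of different families beside Nrp1 and Plxnd1. Sequences run 5' to 3' on the gene's strand, and capitals mark AGGAAG or its reverse complement CTTCCT, a core of ETS factor motifs. Nrp1 (chr8:128358823-128359122, plus strand), Plxnd1 (chr6:115994956-115995255, minus strand), Sema7a (chr9:57939862-57940161, plus strand) and Ephb4 (chr5:137349859-137350158, plus strand) read as follows.
Nrp1: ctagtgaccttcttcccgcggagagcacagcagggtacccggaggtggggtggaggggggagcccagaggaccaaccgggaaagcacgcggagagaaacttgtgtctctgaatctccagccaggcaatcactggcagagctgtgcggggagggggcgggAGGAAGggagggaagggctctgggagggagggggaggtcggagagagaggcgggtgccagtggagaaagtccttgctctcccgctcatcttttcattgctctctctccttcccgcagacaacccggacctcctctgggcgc
Plxnd1: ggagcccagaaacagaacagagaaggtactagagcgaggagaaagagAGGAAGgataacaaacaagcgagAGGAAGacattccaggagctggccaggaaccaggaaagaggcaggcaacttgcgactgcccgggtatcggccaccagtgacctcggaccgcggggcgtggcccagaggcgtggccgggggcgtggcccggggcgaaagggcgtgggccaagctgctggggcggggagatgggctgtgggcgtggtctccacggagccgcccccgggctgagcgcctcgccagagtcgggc
Sema7a: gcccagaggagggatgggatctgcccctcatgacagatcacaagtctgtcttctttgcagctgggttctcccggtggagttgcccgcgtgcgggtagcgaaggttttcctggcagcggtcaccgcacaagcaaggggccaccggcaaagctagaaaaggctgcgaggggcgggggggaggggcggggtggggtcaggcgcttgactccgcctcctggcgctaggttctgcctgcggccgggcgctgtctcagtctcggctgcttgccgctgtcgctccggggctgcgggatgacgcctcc
Ephb4: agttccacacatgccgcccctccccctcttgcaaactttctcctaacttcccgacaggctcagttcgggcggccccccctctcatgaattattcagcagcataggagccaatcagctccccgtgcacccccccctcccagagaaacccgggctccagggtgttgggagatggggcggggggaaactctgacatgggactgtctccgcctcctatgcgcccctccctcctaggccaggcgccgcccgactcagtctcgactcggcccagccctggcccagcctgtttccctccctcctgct

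AGGAAG was found on either strand in 3 of the 5 promoters (Efna1, Nrp1 and Plxnd1), in 21 of the 45 genes of the set with a promoter sequence, and in 38.4% of all 27025 genes with one. In the printed windows, that of Plxnd1 held it at 2 places and that of Nrp1 at 1. The GC box GGGCGGG, searched on both strands, was in all 5 endothelial promoters, in 33 of the 45 genes and in 27.9% of all genes. The 2 motifs can share at most 1 letter at their ends, and a match in these letters describes the window only.

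The comparison of the ciliary layers asked which cues and receptors differ between 2 apposed sheets of neuroepithelial origin. Of the 51 genes tested, 3 (5.88%) were called higher in the non-pigmented layer (Sema3e, Ephb3 and Sema3f) against 4.57% of all 7001 genes tested. Another 3 (5.88%) were called lower (Sema6d, Epha4 and Plxna2) against 2.61%. A call needed an adjusted p under 0.05 and a log2 fold change of at least 1. The median log2 fold change of the 51 was 0.43, against -0.01 over all genes tested, with 3 of the 51 at 0 UMIs in the non-pigmented and 4 in the pigmented layer. All 10 markers of pigmented epithelium had UMIs in the non-pigmented layer. They summed to 4604 and 5974 CPM there and to 28930 and 26140 in the pigmented layer. Markers of non-pigmented epithelium summed to 40.6 and 81.8 in the pigmented layer. Their part in the levels below was not tested.

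Sema3e had 34 and 41 UMIs in the non-pigmented layer and 1 and 1 in the pigmented. The ratio of CPM was 35.9 in library 1 (exact 95% counting interval 6.03 to 1460) and 60.6 in library 2 (10.3 to 2453). Its fitted log2 fold change was 5.47 ± 0.77 (SE, adjusted p = 1.26e-05) (edgeR). Ephb3 measured 25.9 and 35.0 CPM in the non-pigmented and 5.34 and 6.46 in the pigmented layer, a log2 fold change of 2.34 ± 0.58 (SE, adjusted p = 0.00791). Sema3f measured 76.7 and 64.8 against 14.9 and 38.8, a log2 fold change of 1.47 ± 0.43 (SE, adjusted p = 0.0277). Within the libraries its log2 difference was 2.26 and 0.73, so the size differed.

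In the other direction, Epha4 measured 24.8 and 39.3 CPM in the non-pigmented against 133 and 119.9 in the pigmented layer, with no overlap, and a log2 fold change of -1.99 ± 0.35 (SE, adjusted p = 2.37e-04) (edgeR). Sema6d measured 3.38 and 6.37 against 29.9 and 23.0, a log2 fold change of -2.38 ± 0.66 (SE, adjusted p = 0.0197). Plxna2 measured 13.5 and 22.3 against 47.0 and 57.4, a log2 fold change of -1.53 ± 0.43 (SE, adjusted p = 0.0197).

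The pigmented cluster, which was not separated from iris epithelium, also carried muscle genes. Of 14 mural markers, 11 and 10 had UMIs in the pigmented and 10 and 11 in the non-pigmented layer. Their summed level was 1144 and 969.6 CPM in the pigmented, 505 and 296 in the non-pigmented layer, and 40140 and 25470 in mural cells. Cnn1 and Actg2 were at 0 in the pigmented layer in both libraries. Myh11 was found in 62 and 52 pigmented cells. Without those cells Sema3e, Ephb3, Epha4 and Plxna2 kept their calls, while Sema3f (log2 fold change 0.97) and Sema6d (-2.19) lost theirs. At a mitochondrial limit of 15%, Sema3e and Epha4 kept their calls and the other 4 lost theirs, at log2 fold changes close to those above (Ephb3 2.03, Sema3f 1.41, Sema6d -2.26 and Plxna2 -1.51). The median mitochondrial share was 12.0% and 11.1% in the non-pigmented and 14.0% and 14.5% in the pigmented layer.

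**Figure D3:**
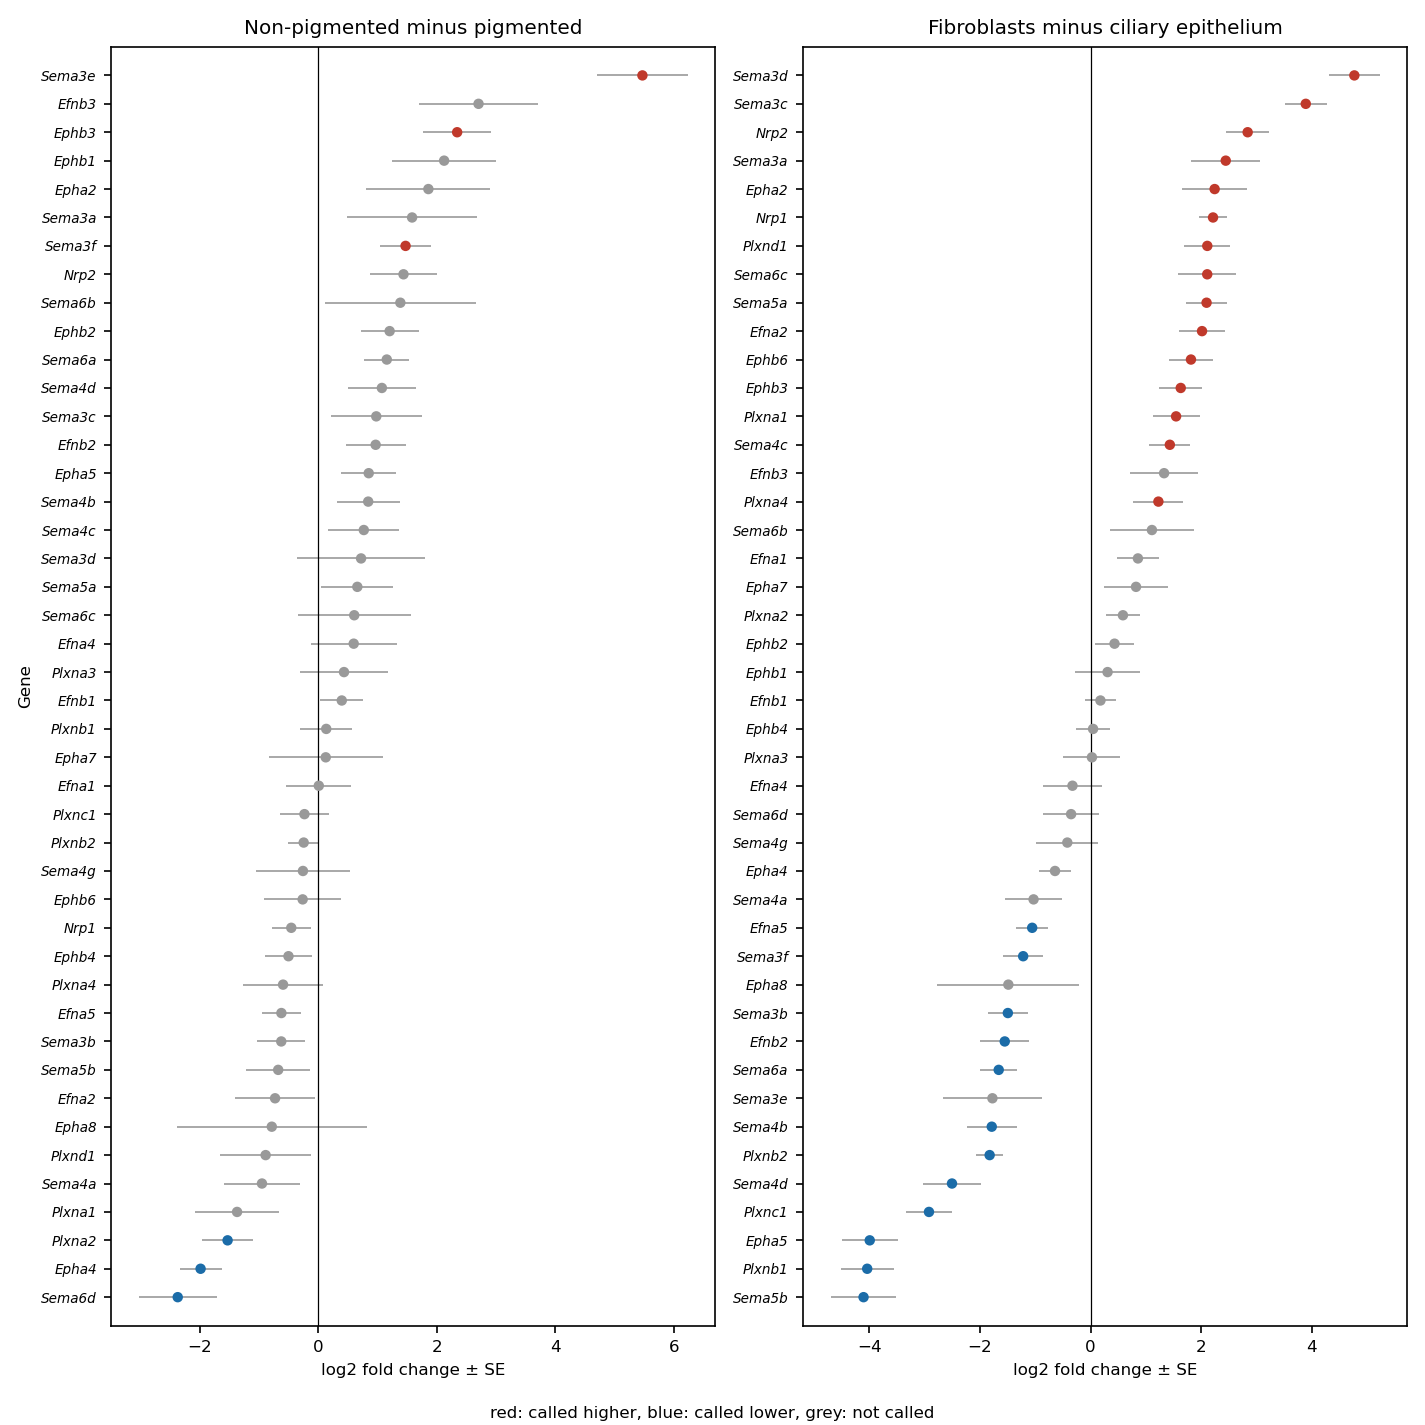
Log2 fold change with its approximate standard error, derived from the F statistic, for the 44 genes with UMIs in each class compared. The non-pigmented over the pigmented layer is on the left and fibroblasts over the ciliary epithelium on the right. Red points were called higher and blue points lower. Sema3e lies farthest right on the left panel, and Sema3d and Sema3c lie on the right side and Sema5b, Plxnb1 and Epha5 on the left side of the right panel.

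Fibroblasts and the ciliary epithelium, here the mean of both layers, differed in more of the set. Of 51 genes tested, 17 (33.3%) were called higher in fibroblasts, against 15.3% of all genes tested, and 12 (23.5%) lower, against 9.70%. The median log2 fold change was 0.68 against 0.11 over all genes tested. Higher were 3 secreted cues (Sema3a, Sema3c and Sema3d), Sema4c, Sema5a, Sema6c, Efna2 and Efna3, both neuropilins, Plxna1, Plxna4, Plxnd1, Epha2, Epha3, Ephb3 and Ephb6. Lower were Sema3b, Sema3f, Sema4b, Sema4d, Sema5b, Sema6a, Efna5, Efnb2, Plxnb1, Plxnb2, Plxnc1 and Epha5.

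Among the fibroblast genes, Sema3d measured 32.2 and 50.7 CPM in fibroblasts, 2.26 and 2.12 in the non-pigmented and 1.07 and 1.44 in the pigmented layer, a log2 fold change of 4.77 ± 0.46 (SE, adjusted p = 7.58e-10) (edgeR). Sema3c had a log2 fold change of 3.89 ± 0.38 (SE, adjusted p = 1.27e-09), Nrp2 of 2.84 ± 0.38 (SE, adjusted p = 3.64e-07) and Epha2 of 2.24 ± 0.58 (SE, adjusted p = 0.0029). Sema3a had 2.44 ± 0.62 (SE, adjusted p = 0.00281), a call that DESeq2 did not make. Among the epithelial genes, Plxnb1 measured 2.45 and 9.22 in fibroblasts against 90.2 and 120.0 and 86.5 and 106 in the layers, a log2 fold change of -4.04 ± 0.48 (SE, adjusted p = 4.39e-08). Epha5 had -3.99 ± 0.51 (SE, adjusted p = 1.63e-07), Sema5b -4.10 ± 0.59 (SE, adjusted p = 3.48e-06), Plxnc1 -2.92 ± 0.41 (SE, adjusted p = 8.32e-07) and Plxnb2 -1.82 ± 0.24 (SE, adjusted p = 3.13e-07). Sema5b rested on 30 and 38 UMIs in the epithelium.

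Against the mean of the other classes, fibroblasts had 28 of 51 genes (54.9%) called higher, against 20.7% of all genes tested. Endothelium had 24 (47.1%) against 15%, Muller glia 21 (41.2%) against 12.7% and the non-pigmented epithelium 20 (39.2%) against 15.4%. The pigmented epithelium had 15 (29.4%) against 15.7%, retinal neurons 14 (27.5%) against 24.4% and melanocytes 12 (23.5%) against 15.4%. The retinal pigment epithelium had 11 (21.6%) against 17.3% and mural cells 11 (21.6%) against 9.11%. Macrophages had 9 (17.6%) against 20.1%, and 5 of 51 by DESeq2, and Schwann cells 8 (15.7%) against 4.80%. The median log2 fold change was 1.58 in fibroblasts, 1.46 in Muller glia and 1.18 in endothelium, against 0.32, 0.25 and 0.23 over all genes tested. In macrophages it was -0.44 against 0.26. These medians include genes at 0 UMIs in some classes, as 47 of the 52 had at least 1 such class, and their fitted values there depend on the fit.

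Within the classes, single clusters carried some of these genes. Among bipolar cells, the second-order neurons of the retina, cluster 3 counted 7 of 7 rod bipolar markers and cluster 25 counted 6 of 7 cone bipolar markers. Cluster 4 counted both and had a median of 11992 UMIs per cell, against 3713 and 3151 in the others. Sema3e measured 118 and 77.2 CPM in cluster 3, 38.0 and 41.7 in cluster 4 and 8.79 and 11.5 in cluster 25. 5 EphA receptors lay the other way. Epha5 had 31.6 and 15.2 in cluster 3 and 395 and 275 in cluster 25, and Epha3 0 and 2.17 and 106 and 56.8. Epha7 had 76.8 and 69.6 and 233 and 132, Epha4 18.1 and 20.7 and 96.7 and 75.4, and Epha10 0 and 1.09 and 43.9 and 35.5. Clusters 3 and 25 did not overlap between libraries for these 6 genes, which were named after their values were seen, so no test was made. Of the 22 genes of the set with at least 20 UMIs in both clusters together, 1 was higher in cluster 3 in both libraries, Sema3e, against 14.5% of 4773 genes not used for clustering, and 15 were higher in cluster 25, against 29.2%. Beside the 5 EphA receptors above, those 15 were Epha8, Ephb2, Nrp2, Plxna4, Plxnb1, Plxnb2, Sema3f, Sema4g, Sema6b and Sema7a.

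Levels also differed among the stromal clusters. Nrp1 was at 429 and 456 in unnamed stroma (cluster 0) and 436 and 474 in fibroblast cluster 1, led by Myoc, against 146 and 133 in cluster 2, led by Chad and Sfrp2, and 187 and 255 in cluster 6, led by Mmp3. Nrp2 went from 486 and 451 in cluster 0 to 258 and 263 in cluster 1, 98.0 and 88.3 in cluster 2 and 36.7 and 59.9 in cluster 6. Cluster 6 had the highest level of Sema3c, 131 and 75.5, and of Sema3a, 39.9 and 18.2, whose level in cluster 0 was 0 and 0.959. Sema3d was highest in cluster 1 at 60.6 and 76.5 and Sema3g in cluster 0 at 22.2 and 40.3. Plxna2 was highest in cluster 0, at 226 and 281, and lowest in cluster 6, at 11.9 and 7.81. Efnb1 was also highest in cluster 0, at 96.0 and 95.9. These clusters were likewise described and not tested. In unnamed stroma 12 and 11 of the 14 mural markers had UMIs, and the list summed to 5852 and 2864 CPM. Tagln with 7032 and 2016 UMIs and Acta2 with 3074 and 703 had the largest counts among these markers, whereas Abcc9 and Higd1b were at 0.

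**Figure D4:**
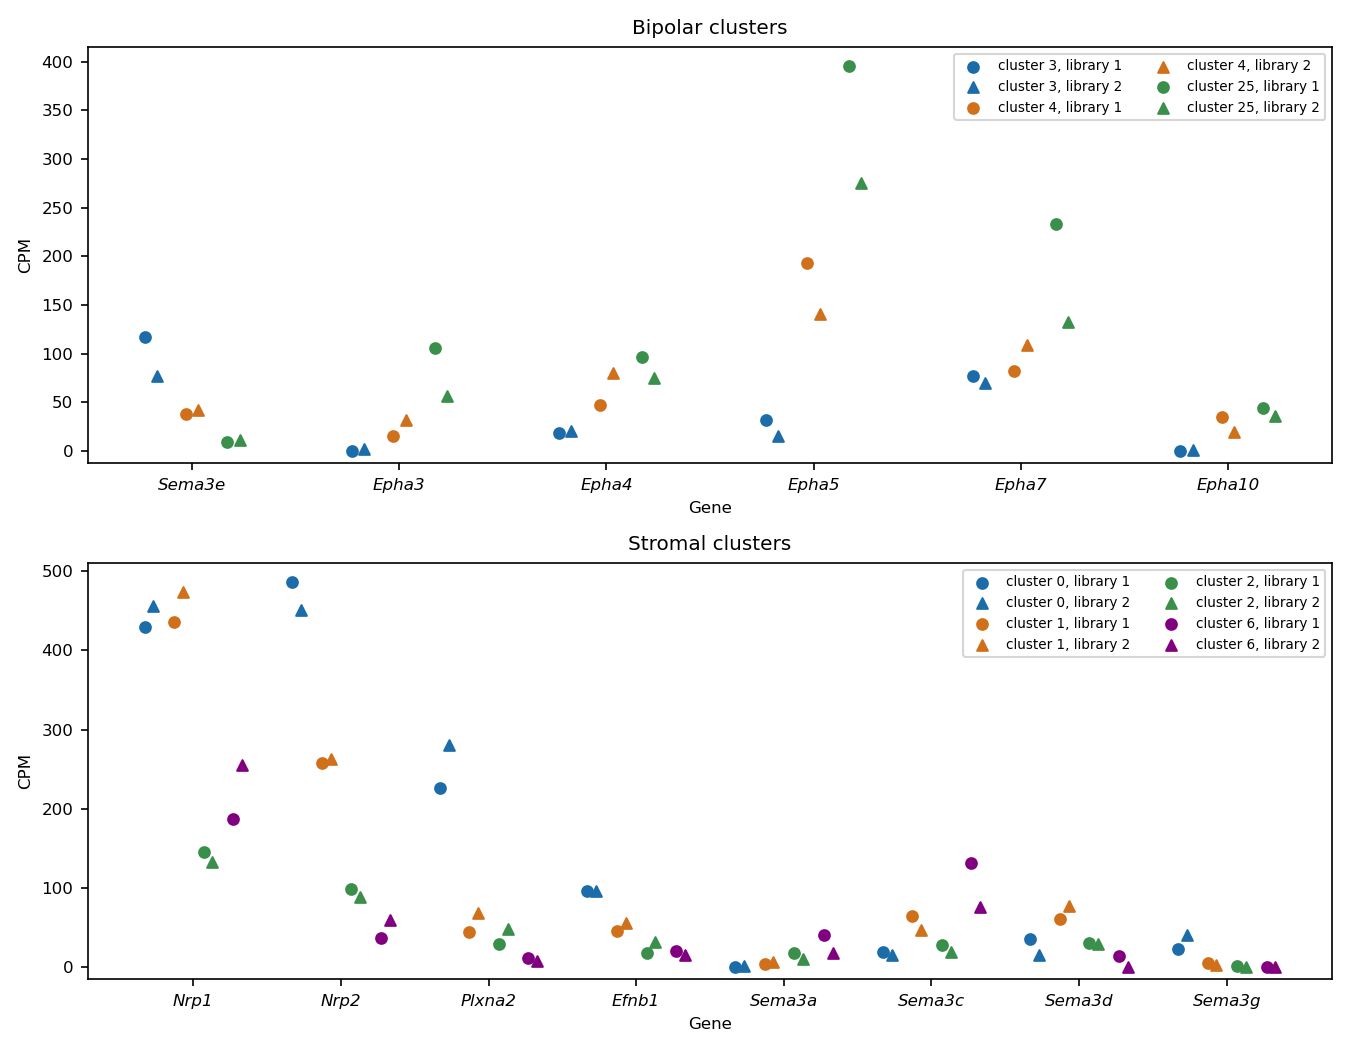
CPM (linear axes from 0) of 6 genes in the bipolar clusters and of 8 genes in the stromal clusters, with colours for clusters, circles for library 1 and triangles for library 2. Sema3e is highest in cluster 3 and Epha5 in cluster 25, and Nrp2 falls from cluster 0 to cluster 6.

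Clusters of the macrophage class differed in Nrp1. Cluster 10 counted 7 of 9 macrophage and 5 of 6 dendritic cell markers, and clusters 7 and 23 counted 8 of 9 and 3 of 6. The differences below may therefore lie between cell types. It measured 439 and 290.4 CPM in cluster 7, led by Pf4 and Ccl8, 257 and 173 in cluster 23, led by Pf4 and Ms4a7, and 61.5 and 48.7 in cluster 10, led by Cd209a and Chil3. Sema4a ran from 91.4 and 145 in cluster 7 and 52.1 and 67.0 in cluster 10 to 18.0 and 12.9 in cluster 23. Cluster 7 held 48 and 10 cells, so its library 2 values rest on few molecules.

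Ligand and receptor pairs were set beside each other by their highest classes. The semaphorin pairs were listed one by one from textbook knowledge. The ephrin pairs were formed by family, every ephrin-A with every EphA receptor and every ephrin-B with every EphB receptor and Epha4. Binding of each single ephrin pair was not considered. Of 23 semaphorin pairs, 8 had a shared highest class for both partners, and in 0 of those was it the same class. Of 40 ephrin-A pairs 20 could be placed and 2 coincided, Efna3 with Epha8 in amacrine cells and Efna5 with Epha4 in the pigmented epithelium. Of 18 ephrin-B pairs 10 could be placed and 1 coincided, Efnb1 with Ephb6 in unnamed stroma. In all, 3 of the 38 listed pairs that could be placed coincided, or 7.89%, near the 27 of 224 (12.1%) over every combination of a placed cue with a placed receptor. Most of the 38 were ephrin pairs formed by family, so the share does not describe pairs known to bind. Pairs reuse the same genes, so they are not independent of each other. In the Sema3e and Plxnd1 pair, the cue was at 38.4 and 43.5 CPM in the non-pigmented layer and 0 and 4.03 in endothelium, and the receptor at 3.38 and 2.12 and 232 and 157. In the Sema7a and Plxnc1 pair, the cue was highest in endothelium and the receptor in melanocytes. Sema3c was highest in the retinal pigment epithelium, where Nrp1 had 7.06 and 8.78. Efnb2 and Ephb4 were both detected in endothelium at 90.0 and 72.6 and 84.9 and 64.5, in a cluster that was not divided into arterial and venous cells.

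Of 47 signalling partners tested (adhesion co-receptors, small GTPase regulators and adaptors), 1 was called higher in the non-pigmented than the pigmented layer and 1 lower, below the shares of all genes tested (4.57% and 2.61%). Farp1, an exchange factor of plexin signalling, measured 19.2 and 19.1 against 5.34 and 6.46 CPM, a log2 fold change of 1.68 ± 0.52 (SE, adjusted p = 0.0422). Adam10, a protease that cleaves ephrins, measured 41.7 and 47.8 against 168 and 118, a log2 fold change of -1.64 ± 0.29 (SE, adjusted p = 2.35e-04) (edgeR). Between fibroblasts and epithelium 10 partners (21.3%, against 15.3% of all genes tested) were called higher and 3 (6.38%, against 9.70%) lower, among the first Dpysl3, a cytoskeletal mediator, at 247 and 206 in fibroblasts against 14.7 and 23.4 and 13.9 and 21.5 in the layers. In endothelium 14 of 47 (29.8%) were called higher against 15% of all genes tested, including Kdr at 1202 and 454. In melanocytes 14 (29.8%) were called higher against 15.4%, including Met at 366 and 257. The non-pigmented epithelium had 10.6% against 15.4%, the pigmented 12.8% against 15.7% and macrophages 17% against 20.1%. The retinal pigment epithelium had 17% against 17.3% and retinal neurons 25.5% against 24.4%. Fibroblasts had 27.7% against 20.7%, Muller glia 25.5% against 12.7%, mural cells 17% against 9.11% and Schwann cells 14.9% against 4.80%. Kdr was also at 810.2 and 378 in Muller glia.

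Of 19 genes tested from other guidance families (netrins, slits and their receptors), 2 (10.5%) were called higher and 3 (15.8%) lower in the non-pigmented than the pigmented layer, against 4.57% and 2.61% of all genes tested. Between fibroblasts and epithelium 4 (21.1%) were called higher and 2 (10.5%) lower, near the 15.3% and 9.70% of all genes tested. In fibroblasts 9 (47.4%) were called higher than in the other classes, against 20.7%. Macrophages had 0 against 20.1% and the retinal pigment epithelium 10.5% against 17.3%. The non-pigmented epithelium had 21.1% against 15.4%, melanocytes 21.1% against 15.4% and endothelium 26.3% against 15%. The pigmented epithelium had 36.8% against 15.7%, Muller glia 31.6% against 12.7% and retinal neurons 42.1% against 24.4%. Mural cells had 21.1% against 9.11% and Schwann cells 10.5% against 4.80%.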

How the data were processed

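For each library the authors deposited unnormalised UMI counts, 1 value per gene and barcode (Cell Ranger 3.1.0, per the file headers). The submitters' processing notes name CASAVA 1.8, Cell Ranger and Seurat, with mm10 (GRCm38). The annotation and strand setting are not given in the sources used here. The library totals were 22510387 and 30683405 UMIs over 4764 and 6220 barcodes, each with at least 500 UMIs. A further matrix per library was identical, with 0 differing entries.

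Barcodes with fewer than 500 genes or over 30% mitochondrial UMIs were dropped, and no doublet caller was run. Genes were divided at random into 16781 for clustering, which held the 213 marker genes found, and 16675 for testing, which held the 52 genes and the partner lists. Cells of both libraries were clustered together on 2000 variable clustering genes (30 principal components, 15 neighbours, Leiden resolution 1, scanpy 1.11.5, Python 3.11.15). A marker counted when its mean reached 0.5 per 10000 UMIs and 4 times the median of the other clusters. A name needed 3 such markers and at least as many class markers among the 10 leading genes as any other class. Leading genes were ranked by fold over the 0.9 quantile of the other clusters. Pigmented clusters were then named by fixed markers (Rpe65, Rgr and Rdh5, or Mlana, Kit and Sox10, or Krt8 and Krt18). This naming rule was written after marker levels had been seen.

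Raw counts were added up within each class of a library. Classes with fewer than 20 cells in either library were left out, and the other 18 gave 36 sums. These were fitted together with class and library as terms, since sums with the same number come from the same library (edgeR 4.0.16 in R 4.3.3 with TMM and filterByExpr). The quasi-likelihood F test had 17 residual degrees of freedom at a common dispersion of 0.0446, and was tested on simulated data. It gives no standard error, so the SE was computed from the log2 fold change and the F statistic. For fold changes close to 0 such an SE is unreliable. Calls needed a Benjamini-Hochberg adjusted p under 0.05 over 7001 genes and a log2 fold change of 1 or more in size. Full values went to called genes with 20 or more UMIs on the higher side in both libraries, up to 5 per direction, and every gene was named with its highest class. Genes described by cluster were chosen after their values were seen. The genes, lists and markers were chosen with earlier results of these data known.

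Alternatives were DESeq2 1.42.0, no low-count filter, no library term, other clustering resolutions (0.5 and 2), another gene division, a 15% mitochondrial limit, leaving out pigmented cells with Myh11, leaving out the 5% of cells with most UMIs, and leaving out each library. RefSeq promoters matched 45 of the 52 genes by symbol.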

Additional observations from a re-analysis of the deposited data

How the results depend on the processing

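Of the counts of called genes, 3 moved by over 1.5 times. Without the low-count filter 5 genes were called higher in the non-pigmented than the pigmented layer in place of 3. At a mitochondrial limit of 15%, 1 gene was called lower there in place of 3. With DESeq2 in place of edgeR, 5 genes were called higher in macrophages in place of 9. Of 62 results for named genes, 56 kept their call under every tested alternative and 6 lost it under at least 1. Those were Sema3f, Ephb3, Sema6d and Plxna2 between the layers, Sema3a between fibroblasts and epithelium, and Plxna4os1 in macrophages. For Sema3f the log2 fold change was 1.54 with DESeq2, 1.41 at the lower mitochondrial limit, 1.36 without the replicate block and 0.97 without pigmented cells with Myh11, in place of 1.47. Without the replicate block, the library term, Sema3f and Plxna2 (log2 fold change -1.53) lost their calls and no other named gene did. The number of genes called higher between the layers was then 2 in place of 3. Leaving out either library left 1 sum per class, so it gave values without a test, and all 62 kept their sign in each. No direction was reversed. The 62 were chosen by their calls and UMIs in these same 2 libraries. That choice favours a kept sign, so the signs are no independent check. The cause of these changes was not tested. The count of shared highest classes needs both libraries. Neutrophils, B cells and Schwann cells had 42 or fewer cells in each library, so levels there from few UMIs carry a large counting error.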
